A study of Bos taurus with 30 samples.

Results

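The white blood cell and inflammation miRNAs of the bovine anterior pituitary were examined as 7 mature miRNAs, bta-miR-142-5p, bta-miR-142-3p, bta-miR-223, bta-miR-150, bta-miR-155, bta-miR-146a and bta-miR-146b. They were taken by name from the 1030 mature miRNAs of the deposited table, and all 7 were found. The 5p and 3p forms of miR-142 come from the arms of a single hairpin, so that the 7 miRNAs stem from 6 genes. The study sequenced small RNA of 30 Holstein-Friesian bull calves at 12 weeks of age, 1 library for each calf, taken from the anterior pituitary, the lobe in which the endocrine cells lie. From 2 weeks of age, 15 calves received a high plane of nutrition (HI), with 1.5 kg of milk replacer in 10 L per day and concentrate ad libitum, and 15 received a moderate plane (MOD), with 0.5 kg of milk replacer in 4 L per day and a restricted allowance of concentrate. The labels name no other treatment and no untreated group. The comparison of HI with MOD addresses whether early nutrition alters these miRNAs in the gland.

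A miRNA is a short RNA that guides an Argonaute protein to matching sites in mRNAs, which are then translated less or degraded. Most white blood cells carry miR-142, which is a general mark of the blood lineage, whereas miR-223 is typical of neutrophils and other myeloid cells and miR-150 of mature lymphocytes. miR-155 is induced when lymphocytes and macrophages are activated and favours inflammatory signalling, while miR-146a and miR-146b, which share a seed but have separate genes, are induced through NF-κB and restrain it by targeting TRAF6 and IRAK1. In the pituitary such miRNAs can come from blood held in the vessels, from resident macrophages or from the gland's own cells. In RNA from whole tissue, fewer cells of a type and less RNA per cell cannot be told apart.

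Between 6650492 and 11086524 reads fell on miRNAs in each library, with a median of 8672424 in HI and 8856734 in MOD. Values are counts scaled to a common library size with TMM factors (TMM-normalized CPM). A miRNA without a read could still lie at up to 3 reads, or 0.266 to 0.419 CPM. The tissue label was matched by its markers, as miR-375, an abundant miRNA of endocrine cells, lay between 103300 and 197200 CPM, while miR-122 of liver did not exceed 0.209 CPM. The red blood cell miRNA miR-451 lay between 56.8 and 403 CPM. HI replicate 1 stood apart in miRNAs of muscle and stroma, with 181600 CPM of miR-143 against a median of 43570 CPM in the other 29 calves, and it also held the highest miR-451 and miR-155 of all libraries. Where a result of miR-155 rested on this library, it is also given below without it or over fits that left out each calf. The diet differences of miR-451 and of miR-144, which was highest in this library too, are given with it only. The labels of the calves are numbers, and the 9 with the highest numbers (5 HI and 4 MOD) had been set apart earlier by the values of other miRNAs, so that results are also given within those 9 and within the other 21.

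Mean levels of the 7 miRNAs over all calves reached from 1.12 CPM for miR-223 to 865 CPM for miR-146b. miR-146b was in rank 75 of all miRNAs, followed by miR-142-5p in rank 98, miR-146a in rank 145, miR-155 in rank 186, miR-142-3p in rank 201, miR-150 in rank 304 and miR-223 in rank 424. The order of miR-146b and miR-142-5p was not fixed, as miR-146b was the higher in 18 of 30 calves. miR-155 exceeded miR-142-3p in 27 of 30 calves, and each of the other neighbours kept its order in 30 of 30. Even the leading miRNA made up 0.0865% of a library on average, and miR-142-5p made up 0.0493%. Summed over the 7, HI calves held 965 to 2707 CPM (median 1413) and MOD calves 800 to 3968 CPM (median 1291).

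**Figure D1:**
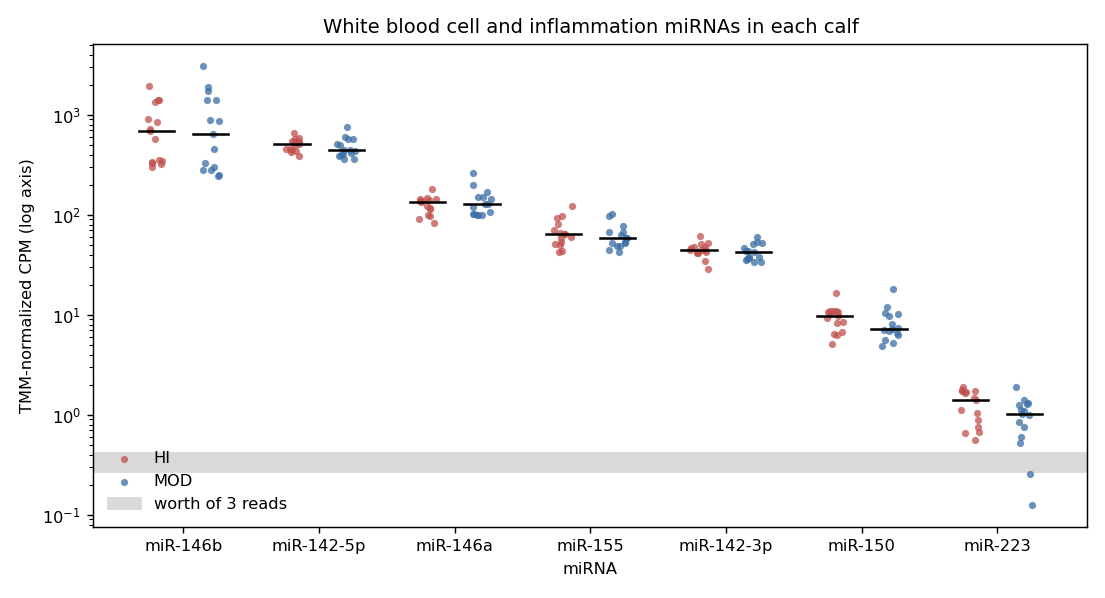
TMM-normalized CPM (log axis) of each of the 7 miRNAs in every calf, with 1 point per library, colours for diet, horizontal bars at the diet medians and a grey band for the worth of 3 reads. The diets overlap for every miRNA, miR-146b is spread from 244 to 3090 CPM, and the 2 lowest miR-223 values lie below the grey band.

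The general white blood cell miRNA miR-142-5p lay between 391 and 659 CPM in HI calves, with a median of 513 CPM, and between 362 and 751 CPM in MOD calves, with a median of 442 CPM. The groups overlapped over most of their range, although 12 of 15 HI calves were above the MOD median. Its mean was 508 ± 71.9 CPM in HI and 478 ± 109 CPM in MOD (SD, n = 15 each). The less abundant arm, miR-142-3p, lay between 29.0 and 61.7 CPM in HI (median 44.8 CPM) and between 33.5 and 59.5 CPM in MOD (median 42.8 CPM). Both its highest and its lowest library were HI. The ratio of the 5p to the 3p arm was narrowly held, with a median of 10.96 and a range of 9.38 to 13.7 over the 30 calves.

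The myeloid miR-223 was close to the limit of detection, with 1 to 19 reads in a library. It lay between 0.559 and 1.92 CPM in HI (median 1.41 CPM) and between 0.126 and 1.91 CPM in MOD (median 1.01 CPM), and 10 of 15 HI calves were above the MOD median. The 2 libraries at or under 3 reads, MOD replicates 6 and 13, gave the lowest values. The lymphocyte miR-150 lay between 5.09 and 16.4 CPM in HI (median 9.77 CPM) and between 4.92 and 18.0 CPM in MOD (median 7.30 CPM). Its highest value was that of MOD replicate 2, which also held the highest miR-142-5p.

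Among the miRNAs of immune activation, miR-155 lay between 42.5 and 124 CPM in HI (median 64.6 CPM) and between 42.5 and 102 CPM in MOD (median 58.5 CPM). The HI maximum was HI replicate 1, at 2.09 times the median of the other 29 calves. miR-146a lay between 82.7 and 182 CPM in HI (median 135 CPM) and between 99.2 and 263 CPM in MOD (median 129.9 CPM). The 3 lowest calves were HI and the highest, MOD replicate 15, was also the highest for miR-146b. miR-146b lay between 299 and 1952 CPM in HI (median 697 CPM) and between 244 and 3090 CPM in MOD (median 645 CPM). Low and high calves occurred in both diets, as 12 of 30 were below 400 CPM (6 HI and 6 MOD) and 9 were above 1000 CPM (4 HI and 5 MOD).

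None of the 7 miRNAs differed between HI and MOD at a false discovery rate (FDR) below 0.1, by limma with Benjamini-Hochberg adjustment over the 419 miRNAs tested, of which 15, or 3.58%, passed. edgeR's quasi-likelihood test called 0 of 7 as well, beside 4.77% of all tested, and DESeq2 called 0 of 7 beside 24 of 419. By each of these, 0 of 7 reached an unadjusted p below 0.05. Among all 419 tested, 53 did so by limma and 56 by edgeR, and the number by DESeq2 is not given here. The lowest FDR was that of miR-223, at 0.529. Its difference on the log2(CPM + 1) scale was 0.22 (SE 0.12, 95% interval -0.03 to 0.47). This scale understates changes of so scarce a miRNA, and with a pseudocount of 0.1 the difference was 0.45 (interval -0.06 to 0.96). The other blood lineage miRNAs lay slightly higher in HI, with log2 differences of 0.18 for miR-150 (SE 0.15, FDR 0.731), 0.10 for miR-142-5p (SE 0.09, FDR 0.746) and 0.06 for miR-142-3p (SE 0.09, FDR 0.882), and the 95% interval of each, by limma, included 0. miR-155 gave 0.11 (SE 0.14, FDR 0.873), and 0.04 without HI replicate 1. miR-146a gave -0.10 (SE 0.13, FDR 0.873) and miR-146b -0.04 (SE 0.38, FDR 0.984). The median over the 7 was 0.10, beside 0.02 over all tested miRNAs.

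The precision of these differences was unequal. A fold change of 1.5 is 0.585 on the log2 scale, and the 95% intervals of both arms of miR-142, miR-150, miR-155 and miR-146a lay within it in either direction, with a pseudocount of 1 and of 0.1. The interval of miR-146b reached from -0.81 to 0.74, and that of miR-223 passed 0.585 with the pseudocount of 0.1, so that a change of that size was not excluded for either. Within the 9 calves with the highest label numbers and within the other 21, the 14 differences gave Benjamini-Hochberg adjusted values of at least 0.704 by exact two-sided permutation tests. The largest was that of miR-223 within the 9, at 0.52 (exact permutation p = 0.0714), beside 0.09 within the 21 (exact permutation p = 0.551). The difference between the sets was tested by limma's interaction term, which called 0 of 419 miRNAs at FDR < 0.1 (21 at an unadjusted p below 0.05) and gave an FDR of 0.800 for miR-223, the lowest of the 7.

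**Figure D2:**
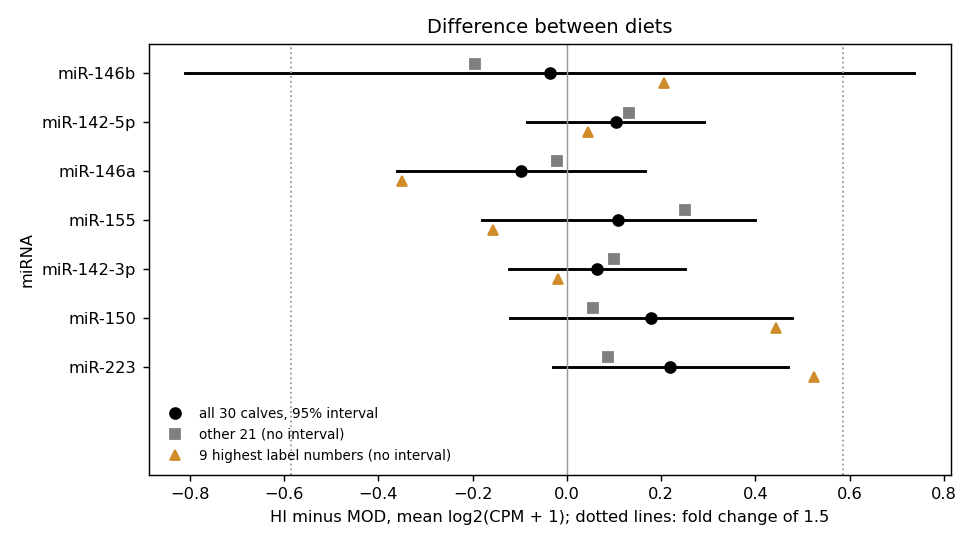
Difference between diets (HI minus MOD, mean log2(CPM + 1)) of the 7 miRNAs, with the 95% interval over all 30 calves (black) and the difference within the 9 calves with the highest label numbers and within the other 21 (coloured symbols, drawn without an interval). Every interval includes 0, and on this scale that of miR-146b alone passes the dotted lines at 0.585, which stand for a fold change of 1.5 in abundant miRNAs but for a larger one in miR-223, at about 1 CPM.

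Ratios between the miRNAs were compared as differences of log2(CPM + 1) by two-sided permutation tests over 15 against 15 calves. None of the 6 passed after adjustment. Library scaling largely cancels in such ratios, but less so for miR-223, whose mean of 1.12 CPM is close to the pseudocount of 1. The arm ratio of miR-142 differed by 0.04 (permutation p = 0.495, adjusted 0.872) and the ratio of miR-146a to miR-146b by -0.06 (permutation p = 0.872, adjusted 0.872). The myeloid to lymphocyte ratio, miR-223 to miR-150, had a median of 0.127 in CPM without a pseudocount. Its log2 value differed by 0.04 between the diets (permutation p = 0.811). With a pseudocount of 0.1 that difference was 0.25, which did not pass either. miR-155 was 7.87 times as high as miR-150 at the median, and this ratio differed by -0.07 between the diets (permutation p = 0.697). The red blood cell miRNA miR-451 itself had a log2 difference of 0.55 (SE 0.21, limma FDR 0.190), larger than those of miR-142-5p and miR-150. miR-144, also of red blood cells, gave 0.46 (SE 0.15, limma FDR 0.115). With edgeR, the paper called both miR-451 and miR-144 higher in HI at FDR < 0.1. miR-486, of red blood cells and muscle, went the other way at -0.27 (SE 0.11, limma FDR 0.274). The ratios to red blood cells use miR-451 alone. The median ratio of miR-142-5p to miR-451 was 3.74 in HI and 5.43 in MOD, and 3 of 15 HI calves were above the MOD median. That log2 difference of -0.45 did not pass (permutation p = 0.0796, adjusted 0.435), nor did the -0.37 of miR-150 to miR-451 (permutation p = 0.145, adjusted 0.435).

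The spread between calves exceeded the diet difference for each of the 7. Removing the diet means, miR-146b had an SD of 1.10 on the log2(CPM + 1) scale, rank 7 among the 419 tested miRNAs, whose median SD was 0.251. The highest calf held 12.7 times the miR-146b of the lowest. With 1902 to 30156 reads of miR-146b in a library, counting error alone gave an SD of 0.0218. Both arms of miR-142 were close to the typical spread, with SDs of 0.260 for the 5p and 0.252 for the 3p arm. miR-146a (0.367), miR-155 (0.404) and miR-150 (0.414) varied more than at least 80.0% of tested miRNAs. For miR-223 the SD was 0.343, and counting error alone gave 0.237.

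**Figure D3:**
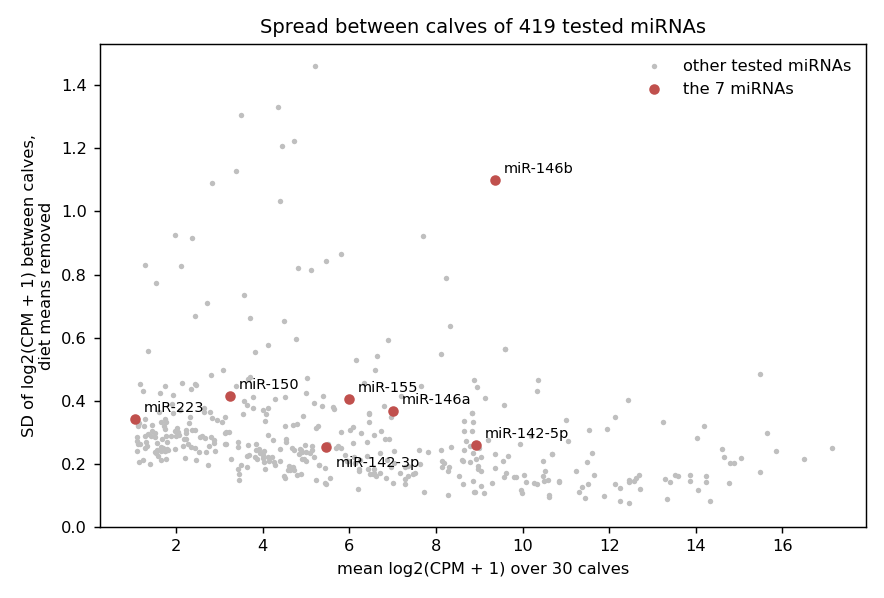
SD of log2(CPM + 1) between calves after removal of the diet means, against the mean log2(CPM + 1) over 30 calves, for the 419 tested miRNAs (grey) and the 7 white blood cell and inflammation miRNAs (named). miR-146b lies at an SD of 1.10, far above both arms of miR-142 at 0.260 and 0.252.

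Which of the 7 varied together was tested over the 30 calves by Pearson's r and Spearman's rho of log2(CPM + 1), with permutation p-values adjusted over 28 pairs, the 21 among the miRNAs and 7 with miR-451. Of these, 6 pairs passed an adjusted p of 0.1 by Pearson's r, 5 of them among the 7 miRNAs, and 7 pairs passed by rho. The share of passing pairs among all tested miRNAs is not given here, so these counts are not read as particular to the 7. The arms of miR-142 were the closest pair, with r = 0.81 and rho = 0.81 (permutation p = 1e-05 for each, the smallest 100000 resamples can give, adjusted 0.00028). For the arms, r was 0.74 without the 2 calves farthest from the median, 0.82 within the 9 and 0.82 within the 21. No pair passed after adjustment within the 9, where fewer calves were tested, so r within the 9 is given as a size only. miR-142-3p also varied with miR-146a, with r = 0.57 (permutation p = 0.00132, adjusted 0.0132) and rho = 0.65 (permutation p = 0.00022, adjusted 0.00308). For that pair r was 0.77 within the 9, 0.52 within the 21 and 0.55 without the 2 farthest calves.

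miR-150 varied with the arms of miR-142 less closely. Its r with miR-142-5p was 0.54 (permutation p = 0.00251, adjusted 0.0176) and rho was 0.48 (permutation p = 0.00797, adjusted 0.0446), with r = 0.54 within the 9, 0.56 within the 21 and 0.38 without the 2 farthest calves. With miR-142-3p, r was 0.47 (permutation p = 0.00992, adjusted 0.0556) and rho was 0.39 (permutation p = 0.0362, adjusted 0.113), so that the rank measure did not pass. r was 0.43 within the 9, 0.49 within the 21 and 0.44 without the 2 farthest calves. Both rest in part on MOD replicate 2, as without it r was 0.42 (adjusted 0.108) with the 5p arm and 0.37 (adjusted 0.171) with the 3p arm, and 3 pairs in place of 6 passed. The relation with the 3p arm also lost its call without MOD replicate 3 (adjusted 0.112) or MOD replicate 8 (adjusted 0.101).

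miR-146b stood apart from the white cell miRNAs. Its r with miR-142-5p was -0.01 (permutation p = 0.939, adjusted 0.974), and rho was 0.03 (permutation p = 0.856). With miR-146a, of the same seed family, r was 0.39 (permutation p = 0.0349, adjusted 0.122) and rho 0.25 (permutation p = 0.187, adjusted 0.465), and r was 0.18 without the 2 farthest calves and 0.23 without MOD replicate 15. miR-146b and miR-155 varied in opposite directions, with r = -0.56 (permutation p = 0.00141, adjusted 0.0132) and rho = -0.51 (permutation p = 0.00508, adjusted 0.0356). That r was -0.52 without the 2 farthest calves, -0.52 within the 9, -0.53 within the 21 and -0.55 without HI replicate 1. MOD replicate 15, with the highest miR-146b of 3090 CPM, had 48.7 CPM of miR-155, and HI replicate 1, with the highest miR-155 of 124 CPM, had 332 CPM of miR-146b. MOD replicate 8 went against this relation, as it had the lowest miR-146b, 244 CPM, and only 48.4 CPM of miR-155. Without that calf r was -0.64.

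By rho alone, 3 further pairs passed. They were miR-142-5p with miR-146a (rho = 0.53, permutation p = 0.00278, adjusted 0.0260, and r = 0.40, permutation p = 0.0274, adjusted 0.110), miR-142-5p with miR-155 (rho = 0.45, permutation p = 0.0133, adjusted 0.0619, and r = 0.33, permutation p = 0.0730, adjusted 0.205) and miR-150 with miR-155 (rho = 0.41, permutation p = 0.0243, adjusted 0.0971, and r = 0.33, permutation p = 0.0784, adjusted 0.205). Without the 2 farthest calves r was 0.40, 0.34 and 0.40, within the 9 it was 0.51, 0.53 and 0.53, and within the 21 it was 0.46, 0.26 and 0.35.

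Among the pairs with miR-451, the relation of miR-155 passed by Pearson's r (r = 0.43, permutation p = 0.0164, adjusted 0.0763) but not by rho (0.32, permutation p = 0.0848, adjusted 0.238). It rested on HI replicate 1, without which r was 0.26 (adjusted 0.388), and it was -0.36 within the 9 against 0.62 within the 21. Without the 2 farthest calves it was 0.34. The call was lost in 8 of 30 repeats in which 1 calf was omitted, which were those of HI replicates 1, 2, 4 and 10 and MOD replicates 2, 3, 4 and 8. None of the other 6 miRNAs passed with miR-451.

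**Figure D4:**
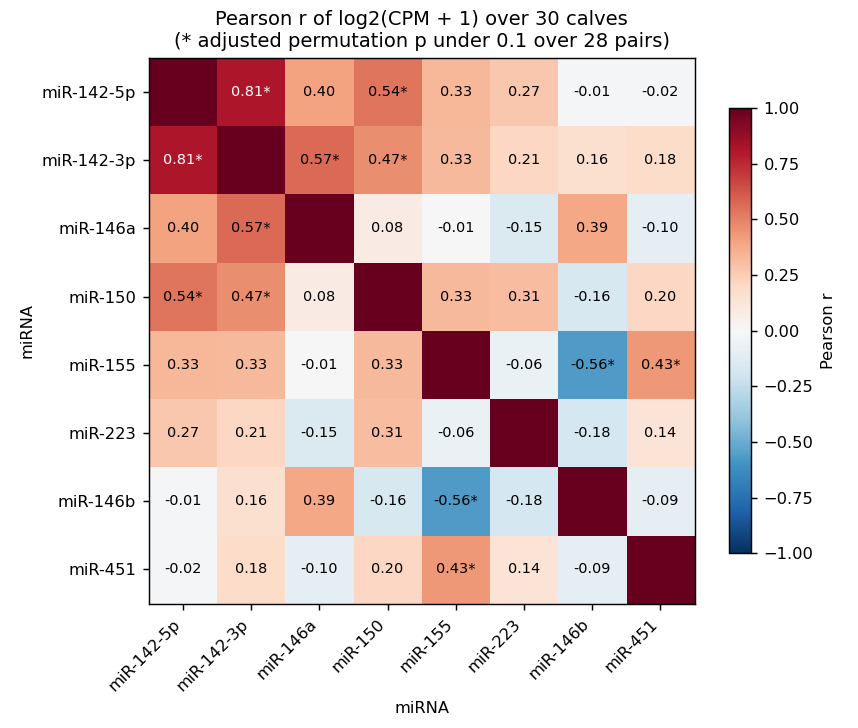
Pearson's r of log2(CPM + 1) over 30 calves for each pair of the 7 miRNAs and of each with miR-451, with r written in each cell and colour running from negative to positive. The arms of miR-142 share the highest value, 0.81, and the pair of miR-155 and miR-146b the lowest, -0.56.

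The miRNAs of the whole table whose levels were most like each of the 7 are given by Spearman's rho over the 30 calves, as a description. Closest to miR-142-5p after its own 3p arm were miR-2285bb (rho = 0.67) and miR-2285t (rho = 0.63), which lay at medians of 2.00 and 11.9 CPM. RefSeq places miR genes on ARS-UCD2.0, where the gene of miR-2285t overlaps FCGR2B, the immunoglobulin Fc receptor of B cells and macrophages, and that of miR-2285bb overlaps FAM78B. miR-142-3p was most like its 5p arm, miR-146a (rho = 0.65) and miR-21-5p (rho = 0.64), an abundant miRNA that is induced in many inflamed tissues and had a median of 6601 CPM. The nearest to miR-146a were miR-142-3p, miR-142-5p (rho = 0.53) and miR-2285k (rho = 0.52).

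miR-150 was most like miR-199a-5p (rho = 0.59), miR-199a-3p (rho = 0.54) and miR-199c (rho = 0.54), where the last 2 are near-identical entries with the same values and count as 1 measurement. The miR-199a family is typical of fibroblasts and vessel walls. miR-155 was most like miR-345-3p (rho = 0.61), miR-214 (rho = 0.60) and miR-133b (rho = 0.56), of which miR-214 is a miRNA of mesenchymal cells and miR-133b of muscle. For miR-214 rho was 0.23 within the 9 and 0.75 within the 21, and for miR-133b it was 0.23 and 0.61. HI replicate 1 was the highest in miR-214 and miR-133b, and r with miR-155 lay within 0.59 to 0.73 for miR-214 and 0.55 to 0.71 for miR-133b when each calf was left out in turn. For miR-223 no likeness exceeded a rho of 0.46, with miR-34a, miR-345-5p and miR-323, and at 1 to 19 reads such values are not read further.

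The closest partners of miR-146b lay outside the blood miRNAs. Its rho was 0.80 with miR-1388-3p and 0.79 with miR-1388-5p, the arms of a hairpin whose gene lies between UCKL1 and DNAJC5, and 0.76 with miR-6526. Within the 9 these were 0.80, 0.78 and 0.68, and within the 21 they were 0.69, 0.69 and 0.84. Leaving out each calf in turn gave r between 0.84 and 0.88 for miR-1388-3p. The calf highest in miR-146b, MOD replicate 15, held 120 CPM of miR-1388-3p and 751 CPM of miR-1388-5p, the latter the highest of all. The calf lowest in miR-146b, MOD replicate 8, held 16.5 and 78.7 CPM, the lowest of each. miR-1388-3p itself did not pass the test between the diets (log2 difference 0.03, limma FDR 0.984). The lowest rank correlation of miR-146b was that with miR-486, a miRNA of red blood cells and muscle chosen here after its values were seen, with rho = -0.58 over all calves, -0.62 within the 9 and -0.42 within the 21.

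**Figure D5:**
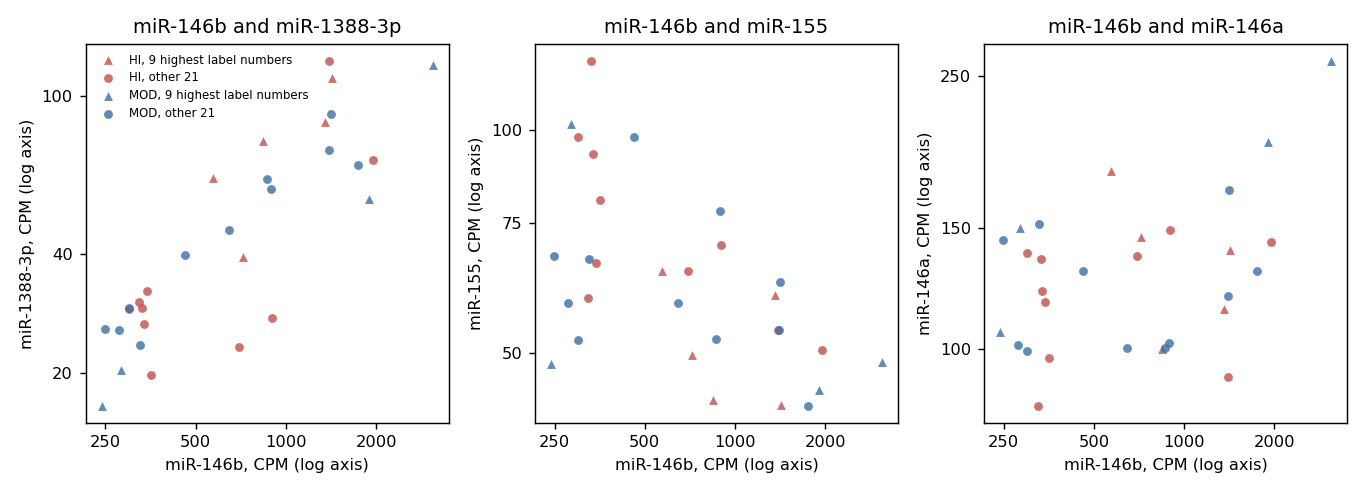
miR-1388-3p, miR-155 and miR-146a against miR-146b in CPM (log axes), with 1 point per calf, colours for diet and symbols for the 9 calves with the highest label numbers and the other 21. miR-1388-3p rises along miR-146b in both diets, miR-155 is low in the calves with the most miR-146b, and MOD replicate 15, the highest in both miR-146a and miR-146b, lies at the upper right.

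Between the label sets, the levels of miR-146b, miR-146a and miR-155 lay furthest apart. As a description, with no test, the 9 calves had medians of 842 CPM of miR-146b against 459.8 CPM in the 21, and 7 of the 9 were above the median of the 21. miR-146a had medians of 145.6 and 121.5 CPM, and miR-155 of 48.7 and 64.6 CPM, with 1 of the 9 above the median of the 21. Among the blood lineage miRNAs the mean log2 differences, the 9 minus the 21, were -0.03 for miR-142-5p, -0.00 for miR-142-3p, 0.13 for miR-150 (medians 10.1 and 8.37 CPM) and 0.045 for miR-223 (medians 1.41 and 1.05 CPM).

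Of 22 other miRNAs known from blood lineages or inflammation, 20 passed the filter on low values, and 0 were higher and 1 lower in HI at FDR < 0.1 by limma, beside 1.91% and 1.67% of all tested miRNAs. Their median log2 difference was -0.02, against 0.02 over all tested miRNAs. The lower one was miR-125a, which is encoded beside let-7e and is known from blood stem cells and macrophages. Its means were 9330 ± 966 CPM for HI and 10680 ± 1116 CPM for MOD (SD, n = 15 each), with a log2 difference of -0.20 (SE 0.06, limma FDR 0.0468) and 1 of 15 HI calves above the MOD median. It kept that direction under every scaling tried, and the FDR rose to 0.220 with scaling by total reads and to 0.120 with limma-voom. Its neighbour let-7e differed by -0.02 (limma FDR 0.920). The most abundant of the list, miR-27a-3p at a mean of 33990 CPM and miR-181a at 28500 CPM, did not pass (limma FDR 0.731 and 0.816).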

How the data were processed

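Anterior pituitary RNA of 30 calves (15 HI, 15 MOD) was sequenced as TruSeq small RNA libraries, 1 per calf. After adapter trimming and selection by length, the authors discarded reads of other bovine short RNAs and counted known bovine miRNAs with miRDeep2 (ARS-UCD1.2). The submitters' notes list FastQC 0.11.8, cutadapt 2.6, R 3.4 and edgeR 3.5. The deposited values are a normalized signal, CPM scaled by TMM factors, and not raw counts. Whole reads were recovered from the steps between low values, with at least 94.7% of checked values whole within 0.02 of a read, and TMM factors recomputed from them differed by at most 6.88e-06. Recovery was tested on simulated data and gave 20 of 20 totals. Depth is given with the results, and intervals from counts cover counting error only.

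The diets were compared with limma 3.58.1 (trend) in R 4.3.3 on log2(CPM + 1) for 419 miRNAs left by filterByExpr, which was applied to the recovered reads, with Benjamini-Hochberg FDR < 0.1. The written design assumed counts, so edgeR 4.0.16 and DESeq2 1.42.0 on the recovered reads served as alternatives. In simulated data for the comparison of HI with MOD over 419 miRNAs, 190 of 200 changed by a fold of 1.5 were called, with 9 false calls. As 200 of 419 were changed there, against 15 of 419 called in the data, this recovery is a check of the method and not its power here. Ratios and correlations used two-sided permutation tests of 100000 resamples, 20000 where 1 calf was left out, and exact tests within label sets. Other alternatives were scalings, filters, a pseudocount of 0.1, depth and miR-486 as covariates, and leaving out each calf. As a block, either the second digit of the label number (4 groups) or the label set was used. Named miRNAs are the 7, the 3 most like each by rho, and of the list of 22 those past FDR < 0.1 or the 2 most abundant. The 7 miRNAs, the lists and the label sets were chosen with earlier results of these data known. RefSeq's table is of another build (ARS-UCD2.0) and gave gene names and neighbours only. Mature sequences were not used here, and miR-511 was not analysed here.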

Additional observations from a re-analysis of the deposited data

How the results depend on the processing

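Under every alternative test, scaling, filter, pseudocount, block and covariate, and with each calf left out, 0 of the 7 miRNAs passed FDR < 0.1 between the diets (0 to 0 over the 30 fits, in 2 of which one of them reached an unadjusted p below 0.05, with a lowest FDR of 0.327), and 0 of the 6 ratios passed (0 to 0). The small difference of miR-142-3p turned to -0.0335 with upper quartile scaling and -0.005 with miR-486 as covariate. That of miR-146b, -0.04 in the report, was -0.61 with miR-486 as covariate (p = 0.0760, FDR 0.601), -0.24 with edgeR and -0.27 with DESeq2, turned to 0.0269 with scaling by total reads, and ranged from -0.15 to 0.12 with 1 calf left out; the cause was not tested. Scaling moved the median of all miRNAs to between -0.074 and 0.071. The ratio of miR-146a to miR-146b turned to 0.17 and that of miR-155 to miR-150 to 0.20 within the 21 calves, and miR-150 to miR-451 turned to 0.25 within the 9. With 1 calf left out the first ranged from -0.16 to 0.0499, and miR-223 to miR-150 from -0.0211 to 0.10. The number of correlated pairs, 6 in all, was 0 within the 9, where fewer calves were tested, 10 with scaling by total reads, for which the cause was not tested, and 3 to 8 with 1 calf left out, an alternative chosen after seeing the data. The pairs of the miR-142 arms, miR-142-3p with miR-146a and miR-155 with miR-146b passed in all 30 of those fits, and 3 pairs that had not passed did so in some, miR-142-5p with miR-146a in 7, miR-146a with miR-146b in 5 and miR-142-5p with miR-155 in 1. The correlation of miR-142-5p with miR-146b, near 0, was 0.0349 by Spearman, 0.056 within the 9, 0.0512 with scaling by total reads and -0.10 to 0.11 with 1 calf left out. That of miR-155 with miR-451 was -0.36 within the 9. Of the values of single miRNAs, ratios and pairs under the alternatives, 129 kept direction and side of the threshold. In the others, 10 changed direction, 8 lost the call and 6 gained it. With 1 calf left out, 663 kept both, 32 changed direction, 12 lost the call and 13 gained it. According to the paper, calves were allotted to the diets in blocks by age, bodyweight, sire and farm. The labels do not give these blocks, so the tests could not use them. No paired analysis was possible because replicate numbers were given in accession order and pair no calves. The depth limits miR-223, with 1 to 19 reads.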
